A study of Mus musculus with 384 samples.

Results

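Laminins and hemidesmosome genes were followed through sorted epithelial cells from mouse mammary glands, each sequenced alone. The 9 genes were chosen by symbol, mapped from the identifiers of the deposited count table, and they are 9 of the 49585 genes in that table. They are the laminin chain genes Lama3, Lamb3, Lama5 and Lamc1, the integrin genes Itga6 and Itgb4, the transmembrane collagen gene Col17a1 and the plakin genes Dst and Plec. None of the 9 encodes an antigen used in the sort.

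The study used full-length Smart-seq2 on sorted cells in 384 wells to describe the mammary epithelium after luminal cells had been ablated, with attention to cells between the basal and luminal layers. Cells were taken as positive for Tomato, CD29 (the product of Itgb1) and EpCAM, and negative for CD140a, CD45 and CD31. All wells, including those labelled wild-type, carry the strain label K8rtta/TetO-DTA/K5CreER/Rosa-Tomato on a mixed background. The names stand for a doxycycline-dependent activator under a keratin 8 (luminal) promoter, diphtheria toxin A under its response element, an inducible Cre under a keratin 5 (basal) promoter and a Tomato reporter at the Rosa locus. The 3 ablated groups came from glands injected through the ducts with 0.2 mg doxycycline and collected 1 week later, with 92 wells labelled hybrid, 91 luminal and 91 basal. The 2 wild-type (WT) groups had 50 luminal and 50 basal wells, and their labels record no injection. Ablation, injection, doxycycline and animal cannot be told apart in a comparison of ablated with WT cells. How the hybrid gate was drawn and which animal gave which cell are not stated in the labels, so each group counted as 1 sample and no test between groups was made.

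In epithelia that rest on a basement membrane, laminins are secreted as trimers of an alpha, a beta and a gamma chain and bind integrins on the basal cell surface. Hemidesmosomes fasten the keratin network to that layer through integrin alpha6 beta4 and collagen XVII in the membrane and the plakins plectin and dystonin (BPAG1) inside the cell. In the mammary gland the basal, myoepithelial layer faces the basement membrane around the luminal cells.

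After filtering, 319 of 374 single-cell wells were kept, namely 85 ablated hybrid, 76 ablated luminal, 71 ablated basal, 43 WT luminal and 44 WT basal cells, with 118310 to 3835005 reads in genes each. Another 5 wells held many cells, 1 for each group, and 5 were negative control wells with 7930 to 13572 reads. The sorted labels went with their markers. The summed level of 10 basal marker genes was 17867 reads per 1000000 reads in genes (CPM) in ablated hybrid, 6423 in ablated luminal, 33949 in ablated basal, 168.5 in WT luminal and 21157 CPM in WT basal cells, and that of 10 luminal markers was 14953, 24718, 1121, 29416 and 1599.5 CPM in the same order. Markers of skin keratinocytes, which also build hemidesmosomes, summed to at most 24.7 CPM and those of endothelium to at most 11.04 CPM in any group. Schwann cell markers summed to 214, 104.7, 164.5, 95.4 and 176.5 CPM and immune markers to 121.5, 38.1, 80.4, 18.8 and 0.325 CPM in the same order of groups; those of pericytes summed to at most 40.6 and of adipocytes to at most 6.51 CPM in any group. Of 8 fibroblast markers the summed level was 525, 129.9, 1955, 620.5 and 889 CPM in the same order, Dcn making up 473, 88.9, 1806, 571 and 813 CPM of it, with Lum at 0 reads in every group and Dpt at 0 in all but the hybrid group; their part in the results below was not tested. Each negative control well held on average 0.2 (Itgb4) to 5 (Dst) reads of a member, where a kept cell held on average 71.04 to 424 reads. The median kept cell was much lower, with 2 reads of Lama3 and Itgb4, 4 of Lama5 and Lamc1 and 5 of Col17a1. Those lay within a few reads of the negative-well averages (1, 0.2, 0.4, 0.4 and 2.2 reads). For Lamb3, Plec, Dst and Itga6 the median kept cell held 32, 53, 197 and 212 reads.

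In summed single cells, the laminin-332 chains Lama3 and Lamb3, and Lamc1, Itga6, Col17a1 and Dst, were at least 2-fold higher in basal than in luminal cells in both conditions. Lama5, Itgb4 and Plec were not past 2-fold in either condition, though in WT cells Lama5 (1.99-fold) and Itgb4 (1.98-fold) were just under it. The many-cell wells differed. There the log2 ratios of luminal over basal in WT and ablated wells were 2.42 and −1.66 for Lama5. They were −1.62 and 2.22 for Itgb4 and −1.10 and 0.58 for Plec. Col17a1 was the member that stood furthest apart between luminal cells of the 2 conditions, at 150.1 CPM in ablated and 1.10 CPM in WT luminal cells. Ablated hybrid cells had intermediate levels of 8 of 9 members, where 50.3% of genes averaging 5 CPM or more did. In the many-cell wells 5 of 9 members did so, where 38.4% of these genes did. Hybrid cells often detected many members in 1 cell. At equal depth they also detected more genes of any kind (median 2996) than ablated luminal (2833) and ablated basal cells (1622).

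Promoter sequence was held in the RefSeq table (GRCm38.p6) for 4 of the 9 members, Col17a1, Lamb3, Lama5 and Dst. These windows run from 250 bases before to 50 bases after an annotated start. They are shown because the 4 genes behaved differently in summed single cells. There Col17a1, Lamb3 and Dst were at least 2-fold higher in basal than in luminal cells in both conditions and Lama5 was not. Capitals mark matches on either strand to a GC box (GGGCGG, reading CCGCCC on the other strand), to an AP-1 motif (TGANTCA) or to the p53-family half-site, which is given by name. The Col17a1 window is chr19:47691993-47692292 on the minus strand, the Lamb3 window chr1:193301744-193302043 on the plus strand and the Lama5 window chr2:180225810-180226109 on the minus strand. The table holds another Lamb3 window that overlaps this one and is not shown. Dst has 2 windows on the plus strand, the upstream chr1:34011345-34011644 and the downstream chr1:34160010-34160309.
Col17a1: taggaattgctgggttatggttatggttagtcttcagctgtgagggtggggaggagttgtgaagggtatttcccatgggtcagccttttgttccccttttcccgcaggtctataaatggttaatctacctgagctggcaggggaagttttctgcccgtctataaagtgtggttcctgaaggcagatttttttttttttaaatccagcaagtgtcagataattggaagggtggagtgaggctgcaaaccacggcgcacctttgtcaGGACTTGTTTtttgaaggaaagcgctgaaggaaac
Lamb3: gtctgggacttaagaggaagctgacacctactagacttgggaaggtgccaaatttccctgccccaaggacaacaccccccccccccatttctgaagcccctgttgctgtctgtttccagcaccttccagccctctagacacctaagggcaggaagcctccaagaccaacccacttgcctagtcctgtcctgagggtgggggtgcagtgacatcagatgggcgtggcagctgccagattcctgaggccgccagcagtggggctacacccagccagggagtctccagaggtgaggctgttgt
Lama5: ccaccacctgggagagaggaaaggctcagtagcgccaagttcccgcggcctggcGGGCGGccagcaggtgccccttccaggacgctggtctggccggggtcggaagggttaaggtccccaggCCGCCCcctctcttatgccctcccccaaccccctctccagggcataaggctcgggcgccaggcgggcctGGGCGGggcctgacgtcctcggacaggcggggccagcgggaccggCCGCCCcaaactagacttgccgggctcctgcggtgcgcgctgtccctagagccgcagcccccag
Dst upstream start: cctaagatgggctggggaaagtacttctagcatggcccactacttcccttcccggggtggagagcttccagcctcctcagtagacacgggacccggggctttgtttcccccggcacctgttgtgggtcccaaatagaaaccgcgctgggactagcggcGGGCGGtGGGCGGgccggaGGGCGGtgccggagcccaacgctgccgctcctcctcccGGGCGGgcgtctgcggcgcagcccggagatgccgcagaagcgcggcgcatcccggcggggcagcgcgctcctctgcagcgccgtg
Dst downstream start: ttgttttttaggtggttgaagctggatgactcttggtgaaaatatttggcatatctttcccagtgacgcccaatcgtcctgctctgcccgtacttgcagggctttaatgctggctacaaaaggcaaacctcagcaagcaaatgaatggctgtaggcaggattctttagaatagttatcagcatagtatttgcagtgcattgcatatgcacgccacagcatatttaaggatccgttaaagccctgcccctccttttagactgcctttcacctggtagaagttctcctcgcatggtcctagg

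The Lama5 window and the upstream Dst window each held 4 GC boxes, and their GC content was 72.7% and 70.3%. The windows of Col17a1, Lamb3 and the downstream Dst start held 0 GC boxes at a GC content of 46.3%, 59.3% and 46%. Of all 32851 mouse promoter windows in the table, 35.7% held a GC box. The Col17a1 window held 1 p53-family half-site, ggacttgttt, beginning 15 bases past the annotated start, and 8.36% of all windows held such a match. No window shown held the AP-1 motif, which 7.81% of all windows did. A match is a description of the letters, and no binding was measured here.

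Lama3 (ENSMUSG00000024421.16, chromosome 18, 12333819 to 12583013, plus strand, GRCm38) encodes the alpha chain of laminin-332, the laminin to which hemidesmosomes anchor. Its summed level was 168 CPM in ablated hybrid, 28.96 in ablated luminal, 199 in ablated basal, 6.795 in WT luminal and 179 CPM in WT basal cells. A summed level cannot tell fewer expressing cells from less RNA per cell, and here the spread over cells was wide: single cells reached 1009, 472, 1717.5, 319 and 1973 CPM in that order, over medians of 18.2, 1.03, 23.4, 0 and 6.295 CPM, and the lowest cell of every group was at 0. The ranges overlapped in full, and the WT luminal level rested on 1 cell that held 74.1% of its Lama3 reads. As a measure of spread within a group, levels were also summed over each plate line (a letter of the well name) with at least 10 kept cells, giving 3 or 4 lines a group. The 3 highest groups, ablated basal, WT basal and ablated hybrid, overlapped across plate lines, and so did ablated luminal with WT luminal cells.

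Lamb3 (ENSMUSG00000026639.18, chromosome 1, 193207699 to 193343878, plus strand), the beta chain of the same trimer, stood at 217 CPM in ablated hybrid, 61.2 in ablated luminal, 443 in ablated basal, 23.7 in WT luminal and 297 CPM in WT basal cells. Single cells ran from 0.932 over a median of 102 to 1368 CPM in ablated hybrid, from 0 over 4.95 to 465 CPM in ablated luminal and from 0.973 over 196 to 2449.6 CPM in ablated basal cells. In WT cells they ran from 0 over 2.005 to 430.3 CPM in luminal and from 0 over 19.8 to 1985 CPM in basal cells. The plate lines of ablated hybrid cells (166 to 295 CPM) lay above those of ablated luminal (49.3 to 75.6 CPM) and below those of ablated basal cells (323 to 684 CPM). Ablated luminal lines in turn lay above the WT luminal lines, which reached 28.8 CPM, while ablated basal and WT basal lines overlapped.

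Per kilobase of merged exon, Lamb3 was 2.10 times as abundant as Lama3 in ablated hybrid, 3.44 in ablated luminal, 3.61 in ablated basal, 5.66 in WT luminal and 2.70 in WT basal cells. On this RPKM scale (CPM per kilobase) Lamb3 was thus above Lama3 in every group; the WT luminal ratio rests on a Lama3 level of which 1 cell held 74.1% of the reads.

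Lama5 (ENSMUSG00000015647.9, chromosome 2, 180176373 to 180225859, minus strand), the alpha chain of laminin-511 and laminin-521, had a narrower range over groups than Lama3, Lamb3 and Lamc1. Its level was 144 CPM in ablated hybrid, 104 in ablated luminal, 87.7 in ablated basal, 79.04 in WT luminal and 168 CPM in WT basal cells. Single cells reached 866, 1449, 1132, 726 and 1936 CPM in that order over medians of 61.6, 17.97, 1.72, 1.43 and 0.470 CPM. The order of the medians was therefore not that of the summed levels, and 1 cell held 39.5% of the WT basal reads. The 4 plate lines of ablated hybrid cells lay close together, at 136 to 160.3 CPM, above all lines of ablated basal (57.5 to 126 CPM) and WT luminal cells (30.55 to 124 CPM). WT basal lines spread from 50.5 to 475.5 CPM and overlapped every other group.

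Lamc1 (ENSMUSG00000026478.14, chromosome 1, 153218922 to 153332786, minus strand), the gamma chain that pairs with Lama5 in laminin-511, stood at 143 CPM in ablated hybrid, 53.2 in ablated luminal, 245 in ablated basal, 22.3 in WT luminal and 78.95 CPM in WT basal cells. Single cells ran from 0 in every group to 838, 468.5, 2394, 243 and 609 CPM, over medians of 66.55, 1.63, 22.1, 0.621 and 1.80 CPM. Its ablated basal level was uneven on the plate: 1 line stood at 493.1 CPM and the other 2 at 71.9 and 19.98 CPM, against 62.6 to 92.8 CPM in the WT basal lines. Per length, Lamc1 was 1.36 times as abundant as Lama5 in ablated hybrid, 0.706 in ablated luminal, 3.85 in ablated basal, 0.389 in WT luminal and 0.649 in WT basal cells, so the order of these chains was not the same in all groups.

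**Figure D1:**
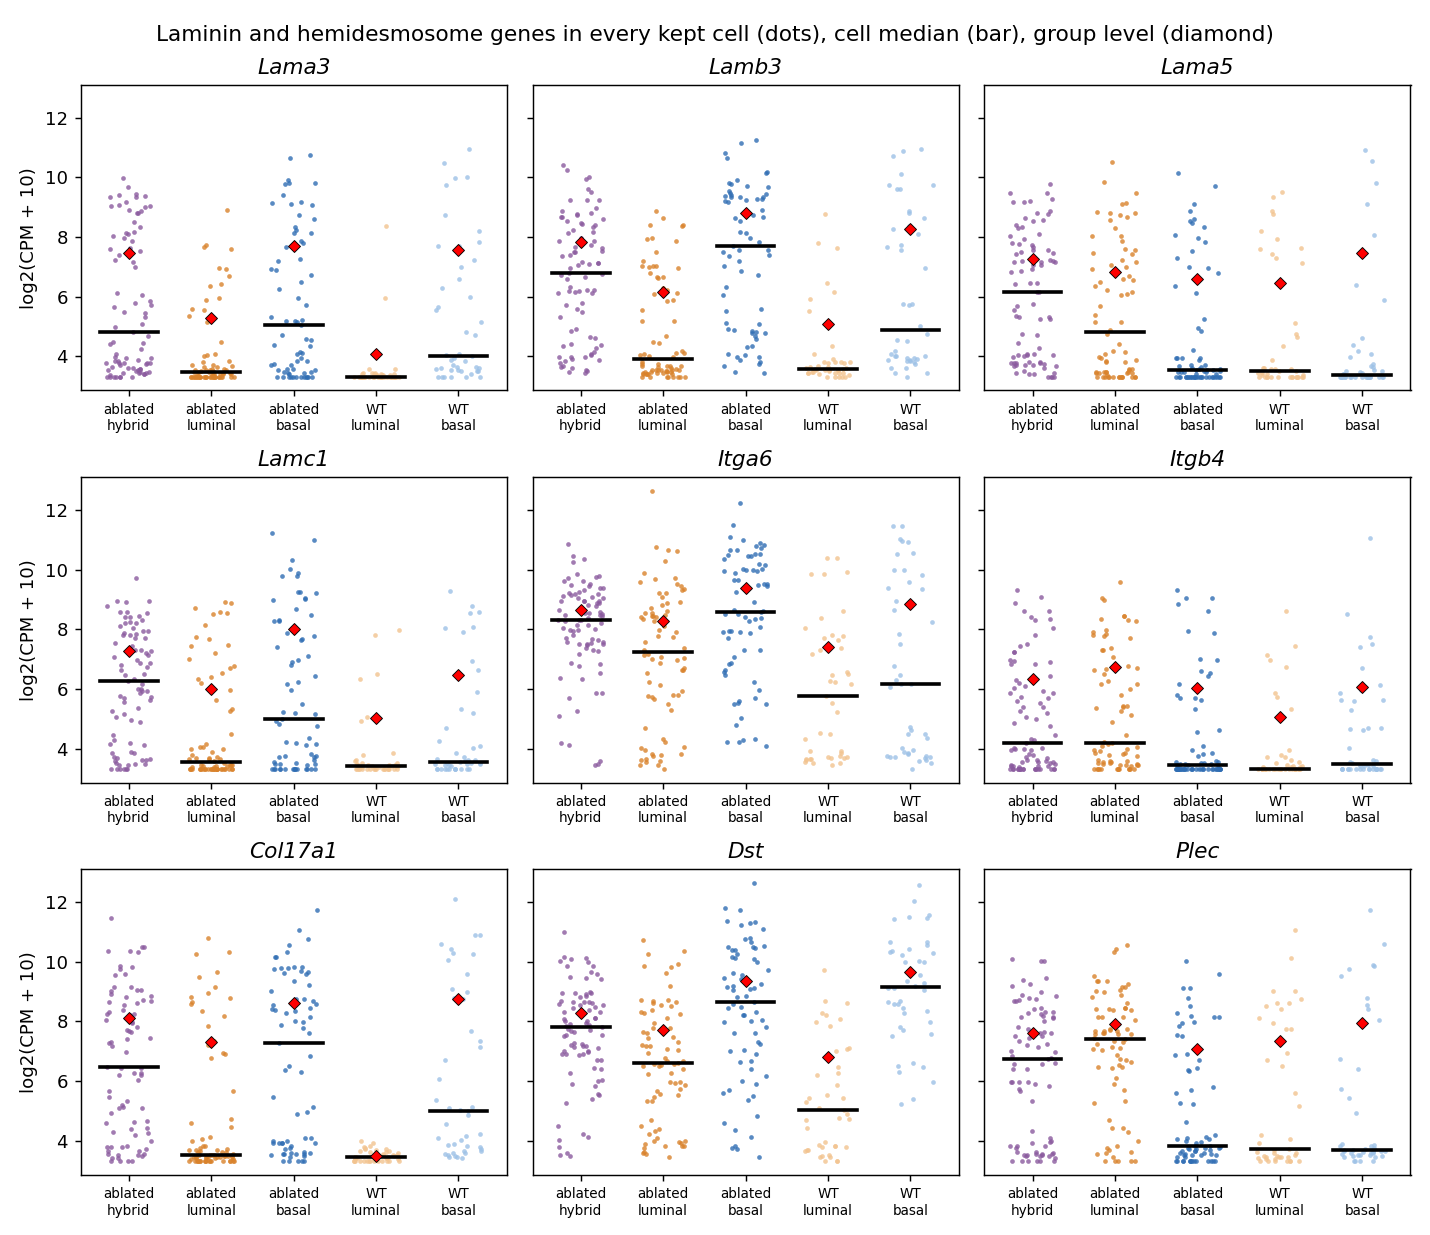
Level of each of the 9 genes in every kept cell, as log2(CPM + 10) on the vertical axis, for 85 ablated hybrid, 76 ablated luminal, 71 ablated basal, 43 WT luminal and 44 WT basal cells. Dots are cells, black bars the median cell and red diamonds the level from summed reads; Col17a1 in WT luminal cells is the panel column with no cell above 5.73 CPM, and in most columns the summed level lies far above the median cell.

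Itga6 (ENSMUSG00000027111.15, chromosome 2, 71745616 to 71858416, plus strand) encodes integrin alpha6, which pairs with beta4 in hemidesmosomes and with beta1 elsewhere. It stood at 394 CPM in ablated hybrid, 300.4 in ablated luminal, 662.5 in ablated basal, 161 in WT luminal and 453 CPM in WT basal cells. Single cells ran from 0.950 over a median of 309 to 1849 CPM in ablated hybrid, from 0 over 142.5 to 6368 CPM in ablated luminal and from 7.03 over 376 to 4857.5 CPM in ablated basal cells. In WT cells they ran from 0.782 over 44.9 to 1347 CPM in luminal and from 0 over 61.2 to 2836 CPM in basal cells. Hybrid cells had the most even level, with 171 CPM at the lower quartile against 38.8, 106, 3.10 and 4.43 CPM in ablated luminal, ablated basal, WT luminal and WT basal cells. Plate lines of ablated luminal cells (259 to 393 CPM) lay above those of WT luminal cells (59.8 to 228 CPM), and the other neighbours in the order of levels overlapped.

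Itgb4 (ENSMUSG00000020758.15, chromosome 11, 115974709 to 116008412, plus strand), the beta4 partner found in hemidesmosomes, stood at 70.7 CPM in ablated hybrid, 96.4 in ablated luminal, 54.8 in ablated basal, 23.4 in WT luminal and 56.2 CPM in WT basal cells, with single cells from 0 to 621, 763, 632, 386 and 2146 CPM over medians of 8.17, 8.06, 0.811, 0 and 1.09 CPM. The highest summed level was thus in ablated luminal cells, and 1 cell held 39.7% of the WT basal reads. Plate lines of ablated luminal (44.8 to 169 CPM) and of ablated hybrid cells (43.5 to 84.2 CPM) lay above the WT luminal lines (16.01 to 32.7 CPM), and ablated basal lines (31.55 to 96.7 CPM) overlapped all of these. Per length, Itgb4 stood at 0.231 of Itga6 in ablated hybrid, 0.413 in ablated luminal, 0.106 in ablated basal, 0.186 in WT luminal and 0.160 in WT basal cells.

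Col17a1 (ENSMUSG00000025064.14, chromosome 19, 47646344 to 47692094, minus strand) encodes collagen XVII (BP180), the transmembrane collagen of hemidesmosomes. It stood at 268 CPM in ablated hybrid, 150.1 in ablated luminal, 379 in ablated basal, 1.10 in WT luminal and 424 CPM in WT basal cells. Single cells ran from 0 over a median of 79.2 to 2832.5 CPM in ablated hybrid, from 0 over 1.57 to 1764 CPM in ablated luminal and from 0 over 144 to 3439.7 CPM in ablated basal cells. In WT cells they ran from 0 over 0.847 to 5.73 CPM in luminal and from 0.671 over 22.2 to 4422 CPM in basal cells. All WT luminal cells thus lay low, while each of the other groups held cells near 0 and cells above 1000 CPM.

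In WT luminal cells Col17a1 gave 78 reads in all 43 cells, or an exact Poisson 95% interval of 0.867 to 1.37 CPM. A negative control well held 2.2 Col17a1 reads on average (0 to 5), so WT luminal wells held no more reads per well. Ratios that use this WT luminal level, here and below, therefore rest on a background value. Of the 43 WT luminal cells, 0 detected Col17a1 at 5 reads after thinning to 100000 reads. That allows a share of up to 6.98% when 3 of 43 cells set the limit, and the exact Clopper-Pearson upper bound is 8.22%. In ablated luminal cells 25% detected it (Clopper-Pearson 95% interval 15.8 to 36.3%), and the median cell stayed at 1.57 CPM, so that the summed level rested on a minority of cells. Plate lines of ablated luminal cells spread from 8.97 to 177 CPM, all above the WT luminal lines (0.518 to 2.13 CPM) and all below the ablated hybrid lines (183 to 406 CPM). Intervals of this kind cover counting error and the drawing of cells, not differences between animals, and Smart-seq2 reads carry no molecular identifiers. Per length, Col17a1 was 4.43 times as abundant as Itgb4 in ablated hybrid, 1.82 in ablated luminal, 8.07 in ablated basal, 0.0548 in WT luminal and 8.81 in WT basal cells.

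Dst (ENSMUSG00000026131.18, chromosome 1, 33908225 to 34308661, plus strand) encodes dystonin, whose epithelial form BPAG1e links keratin to the hemidesmosome; forms that serve muscle and neurons share the gene, and counts per gene do not resolve them. It stood at 299 CPM in ablated hybrid, 199.9 in ablated luminal, 642 in ablated basal, 103.1 in WT luminal and 802 CPM in WT basal cells. Single cells ran from 1.23 over a median of 215.5 to 2046 CPM in ablated hybrid, from 1.015 over 86.45 to 1689 CPM in ablated luminal and from 0.911 over 393 to 6361 CPM in ablated basal cells. In WT cells they ran from 0 over 23.0 to 838 CPM in luminal and from 27.7 over 563 to 6096 CPM in basal cells. WT basal cells were the group in which no cell fell below 27.7 CPM, and their plate lines were the most even, at 753 to 834.5 CPM, against 348 to 1058 CPM in ablated basal cells.

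Plec (ENSMUSG00000022565.15, chromosome 15, 76170974 to 76232574, minus strand) encodes plectin, a linker between keratin and integrin beta4 that is also made outside hemidesmosomes, and its forms are not resolved either. It stood at 184 CPM in ablated hybrid, 232 in ablated luminal, 126 in ablated basal, 154 in WT luminal and 238 CPM in WT basal cells, with single cells from 0 to 1076, 1489, 1042, 2160.2 and 3380.4 CPM over medians of 97.2, 160.5, 4.21, 3.11 and 2.905 CPM. Median cells were thus far higher in the ablated hybrid and ablated luminal groups than in the others, which the summed levels did not show; in WT basal cells 1 cell held 34.8% of the reads. Neighbours in the order of levels all overlapped across plate lines. Per length, Plec was 1.40 times as abundant as Dst in ablated hybrid, 2.64 in ablated luminal and 0.446 in ablated basal cells. In WT cells it was 3.40 in luminal and 0.676 in basal cells. On this scale Dst led in both basal groups and Plec in the other 3. The lengths are merged over all annotated forms, 41155 bases for Dst and 18113 for Plec, so this order depends on the forms made. In CPM, Dst (299) was above Plec (184) in hybrid cells.

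The first comparison set WT luminal against WT basal cells. All 9 members had a log2 ratio of (CPM + 10) below 0, and 6 of 9 were at least 2-fold lower in WT luminal cells, where 21.3% of the 11106 measured genes were (genes whose level averaged 5 CPM or more across groups counted as measured). None was 2-fold higher, where 22.3% of genes were. The 6 were Col17a1 (log2 ratio −5.29), Lama3 (−3.49), Lamb3 (−3.19), Dst (−2.84), Lamc1 (−1.46) and Itga6 (−1.43), and the members just under 2-fold were Lama5 (79.04 against 168 CPM) and Itgb4 (log2 ratio −0.99), with Plec at −0.60. The median was −1.46, against 0.01 over all measured genes. For each of the 6, every WT luminal plate line lay below every WT basal line. The share of all genes with lines apart in this way was not computed. After removal of each gene's top cell in both groups, Lama5 stood at −0.63, Itgb4 at −0.70 and Plec at −0.18. The 6 stayed past 2-fold, and the share of all genes past it without their top cells was not computed.

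Among other laminin chains, Lama1 (log2 ratio −3.91, 1.80 against 168 CPM) and Lamb2 (−1.66) were at least 2-fold lower in WT luminal cells. Lamb1 stood at 81.1 CPM in WT luminal and 50.97 CPM in WT basal cells. Lama4 stood at 0.0422 and 7.30 CPM, and Lama2 and Lamc3 had 0 reads in both WT groups. Of other basement membrane parts 6 of 8 were lower, including the collagen IV chain Col4a1 (−2.86), the anchoring fibril collagen Col7a1 (−2.65), Col4a2 (−1.97) and Col4a6 (−1.53). Among other laminin receptors and hemidesmosome partners, 7 of 13 were lower and 1 higher, the lower ones led by the basal keratins Krt14 (−7.30) and Krt5 (−5.20), the laminin receptor chain Itga3 (−3.33) and the plakin Ppl (−2.10), a gene detected in 3 WT luminal cells and in 4 WT basal cells. In the many-cell wells Ppl was 193 CPM in the WT luminal well with 0 reads in the WT basal well, and Lamb2 was 21.9 against 4.96 CPM (1.09), both opposite to the single cells. Of genes that process laminin or the basement membrane 2 of 5 were lower, the protease Mmp2 (−4.24) and its inhibitor family member Timp3 (−2.01).

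The second comparison set ablated luminal against ablated basal cells. Again 6 of 9 members were at least 2-fold lower in the luminal cells, where 13.2% of genes were, and 0 were 2-fold higher, where 19.3% were. Lamb3 stood at a log2 ratio of −2.67, Lama3 at −2.42, Lamc1 at −2.01, Dst at −1.63, Col17a1 at −1.28 and Itga6 at −1.12. Plec (0.83), Itgb4 (0.72) and Lama5 (0.22) lay above 0, which they did not in WT cells; whether the difference between luminal and basal cells itself differed between conditions was not tested. The median was −1.28, against 0.16 over all genes. Among other laminin chains, Lama1 (−4.10), Lamb2 (−2.08) and Lamb1 (−2.03) were at least 2-fold lower. All 8 measured basement membrane parts were lower, Col4a1 (−4.47), Col4a2 (−4.43), Nid1 (nidogen, −3.10) and Col7a1 (−2.83) by most. Of receptors and partners 4 of 13 were lower, among them Krt5 (−1.58), the laminin receptor Bcam (−1.31) and Itga3 (−1.25), and 1 higher, Ppl (2.09). Of processing genes 2 of 5 were lower, Mmp2 (−4.35) and Timp3 (−2.16), and 1 higher, Mmp14 (1.21).

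The third comparison set ablated luminal against WT luminal cells. All 9 members had log2 ratios above 0, and 4 of 9 were at least 2-fold higher in ablated luminal cells, where 15.3% of genes were: Col17a1 (3.85), Itgb4 (1.67), Lama3 (1.21) and Lamb3 (1.08). None was 2-fold lower, where 6.61% of genes were. Lamc1 (0.97), Dst (0.89), Itga6 (0.86), Plec (0.56) and Lama5 (0.35) followed, and the median was 0.97 against 0.21 over all genes. That shift of all genes is relevant to each of these ratios, since scaling by trimmed mean of M-values brought the median of all genes to 0.01 and that of the 9 members to 0.74. Under that scaling Lamb3 stood at 0.85, and with every cell given equal weight Lama3 stood at 0.85 and Lamb3 at 0.89, all under 2-fold. Equal weight in turn put Lamc1 (58.2 against 15.8 CPM) and Dst (216 against 92 CPM) past 2-fold. With each group's top cell of a gene left out, 7 of 9 members passed 2-fold, and the share of all genes was not recomputed in this way. Lamc1 (1.14), Dst (1.03) and Itga6 (1.01) joined the 4, and the Lama3 ratio was 1.36.

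In the many-cell wells 5 of 9 members had the same sign as in single cells. Col17a1 was 25.6 CPM in the ablated luminal and 1.99 CPM in the WT luminal well (log2 ratio 1.57), and Lamb3 was 20.2 against 9.95 CPM (0.60). Itgb4, however, was 79.45 against 119 CPM (−0.53) and Lama3 was 0.285 against 0.995 CPM (−0.10), 1 read in each well. Basal marker genes also stood higher in ablated than in WT luminal cells, as given above, and Krt14 itself was 3920 CPM in ablated and 35.4 CPM in WT luminal cells; their part in these ratios was not tested. Of the other lists, in single cells, 3 of 8 basement membrane parts and 1 of 5 processing genes were 2-fold higher, among them Col4a5 (2.07, 65.5 against 7.98 CPM). Of receptors and partners 6 of 13 were higher and 1 lower, led by Krt14 (6.44), Krt5 (4.78), the syndecan Sdc1 (2.99) and Ppl (1.74) in single cells. The many-cell wells gave 1.55 for Krt14 and 1.81 for Sdc1, but −0.22 for Krt5 (4.56 against 6.96 CPM) and −2.92 for Ppl (16.8 against 193 CPM).

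**Figure D2:**
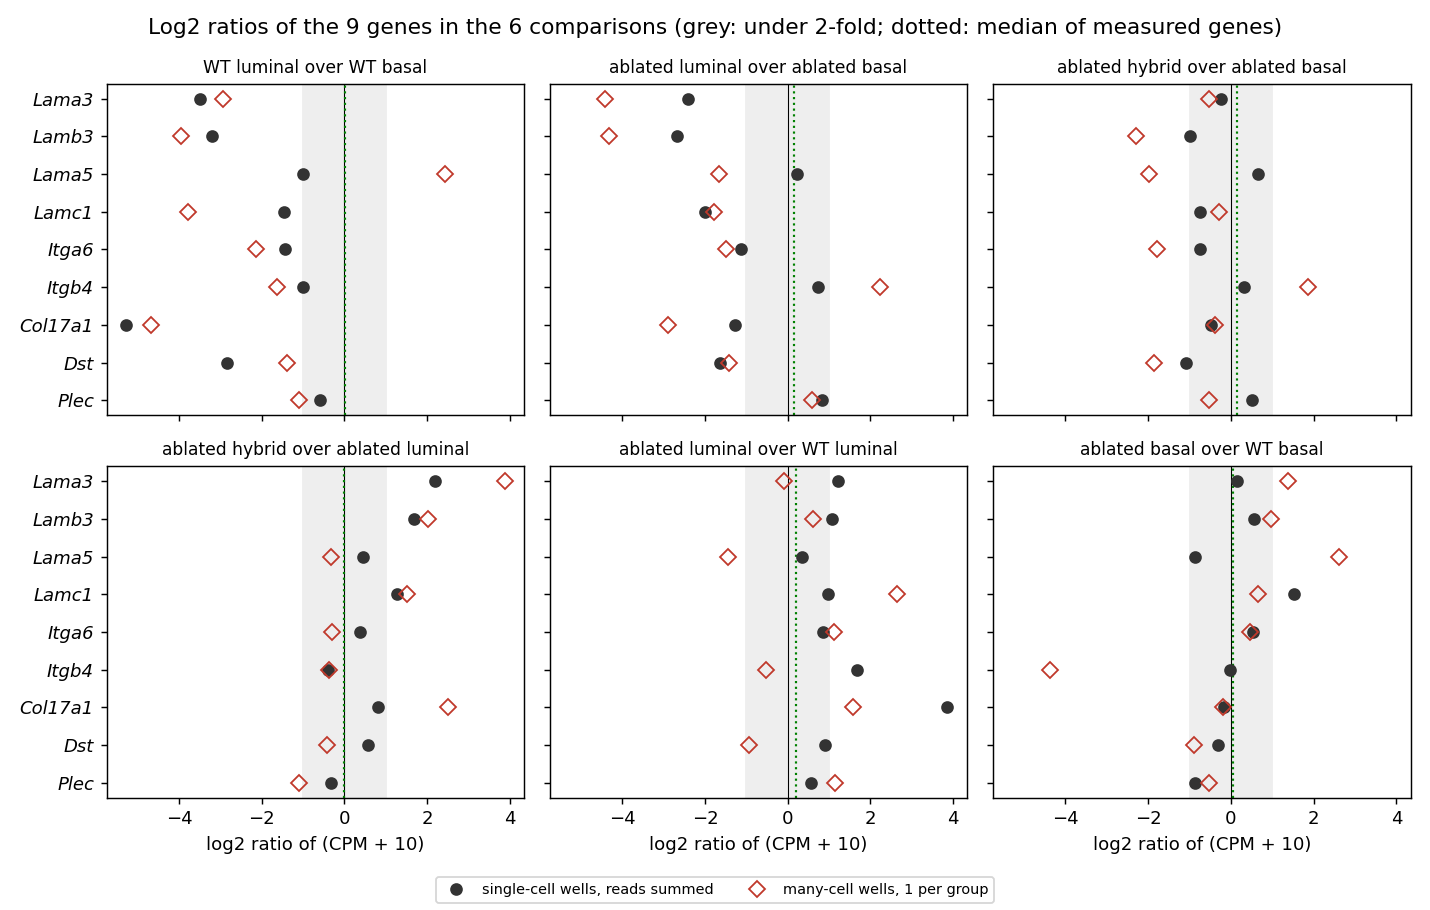
Log2 ratio of (CPM + 10) of each of the 9 genes (rows) in 6 comparisons (panels, first group over second), from summed single cells (filled circles) and from the 1 many-cell well of each group (open diamonds). The grey band is under 2-fold and the dotted line the median of all measured genes; 6 filled circles lie left of the band in both luminal over basal panels, and Lama5 and Itgb4 show the widest gaps between circle and diamond.

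The fourth comparison set ablated basal against WT basal cells. Of the 9 members 1 was at least 2-fold higher, Lamc1 (log2 ratio 1.52), where 19.8% of genes were, and 0 were 2-fold lower, where 14.9% were. The median was −0.03, against 0.05 over all genes. Lamb3 (0.56), Itga6 (0.54), Lama3 (0.15), Itgb4 (−0.03), Col17a1 (−0.16), Dst (−0.32), Lama5 (−0.86) and Plec (−0.87) lay on both sides of 0. Plate lines of the 2 groups overlapped for every member, Lamc1 included, and the share of all genes with overlapping lines was not computed. Of other basement membrane parts 6 of 8 were at least 2-fold higher and 0 lower, led by Col4a5 (2.77), Col4a2 (2.59), Nid1 (1.96) and Col7a1 (1.91). The laminin chain Lamb1 was also higher (2.01, 236 against 50.97 CPM). Of receptors and partners 3 of 13 were higher, Bcam (1.22), Dag1 (1.18) and Krt5 (1.17), and 2 lower, Ppl (−2.46) and Macf1 (−1.60). Mmp2 was the 1 of 5 processing genes that was higher (1.96). In the many-cell wells Macf1 (1.62) and Krt5 (−0.96) had the opposite sign, and Ppl stood at 3.96 CPM in the ablated basal well and 0 in the WT basal well. The summed fibroblast markers given above also stood higher in ablated basal cells, mostly through Dcn (1806 against 813 CPM). Col1a2 (61.3 against 9.83 CPM), Pdgfra (75.1 against 45.2 CPM), Col1a1 (5.46 against 0.953 CPM) and Col6a3 (1 against 0.0217 CPM) were also higher. Only Col3a1 was lower, at 5.95 against 20.6 CPM. At least 2 fibroblast markers were detected in 13 of 71 ablated basal cells, against 1 of 44 in the WT basal group. The part of fibroblast markers in these ratios was not tested.

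The last 2 comparisons placed the ablated hybrid cells. Against ablated basal cells, 1 of 9 members was at least 2-fold lower, Dst (log2 ratio −1.08), where 8.87% of genes were, and 0 were higher, where 16% were. Lamb3 lay just under 2-fold at −0.99, Lamc1 and Itga6 both at −0.74, Col17a1 at −0.48 and Lama3 at −0.23, while Itgb4 (0.32), Plec (0.52) and Lama5 (0.66) lay above 0. Against ablated luminal cells, 3 of 9 members were at least 2-fold higher, Lama3 (2.19), Lamb3 (1.67) and Lamc1 (1.27), where 6% of genes were, and 0 were lower, where 4.19% were. Col17a1 stood at 0.80, Dst at 0.56, Lama5 at 0.44, Itga6 at 0.38, Plec at −0.32 and Itgb4 at −0.40. Medians were −0.48 against basal and 0.56 against luminal cells, with all genes at 0.14 and −0.01. Both comparisons share the hybrid cells.

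Related genes were compared in the same way. Among other laminin chains, Lama1 was lower in hybrid than in ablated basal cells (−1.11, 89.9 against 205 CPM), and Lama1 (2.99), Lamb2 (1.21) and Lamb1 (1.10) were higher in hybrid than in ablated luminal cells. Of other basement membrane parts 4 of 8 were lower than in basal cells, with Nid1 (−1.51) and Hspg2 (−1.41) ahead, and 4 of 8 higher than in luminal cells, Col4a2 (3.73), Col4a1 (3.39), Col7a1 (2.27) and Nid1 (1.59); in the many-cell wells Col7a1 stood at −0.11. Of receptors and partners 1 of 13 was lower than in basal cells (Cd151, −1.13), 0 of 13 were higher than in luminal cells and 2 of 13 lower than in luminal cells (Sdc1, −1.34, and Ppl, −1.10), and Cd151 and Sdc1 had lower levels in hybrid cells than in either other ablated group. Of processing genes, Timp3 (−1.22) and Mmp2 (−1.10) were lower and the membrane protease Mmp14 (1.08) higher than in basal cells, and Mmp2 was higher than in luminal cells (3.25).

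The hybrid level lay between those of ablated luminal and ablated basal cells for 8 of 9 members, all but Lama5, where 50.3% of measured genes did so. In the many-cell wells this held for 5 of 9 members (Lama3, Lamb3, Lamc1, Itgb4 and Col17a1), where 38.4% of genes did so.

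The share of cells in which a member was detected gave another order. With detection at 5 reads after thinning each cell to 100000 reads, Itga6 was detected in 89.4% of ablated hybrid, 71.05% of ablated luminal, 85.9% of ablated basal, 46.5% of WT luminal cells and 50% of WT basal cells. For Col17a1 the shares were 57.65%, 25%, 56.3%, 0% and 40.9%, and for Dst 83.5%, 64.5%, 83.1%, 37.2% and 97.7%, in the same order. Lama5 was detected in 54.1%, 43.4%, 25.35%, 25.6% and 13.6%, so WT basal cells had the highest Lama5 level with the lowest share of cells. Plec likewise was detected in 61.2%, 73.7%, 30.99%, 39.5% and 27.3%.

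Of the 9 shares, 6 were higher in hybrid cells than in both other ablated groups, those of Lama3, Lama5, Lamc1, Itga6, Col17a1 and Dst, where 46.1% of measured genes had such a share. Hybrid cells also detected more genes of any kind at the same depth, with a median of 2996 against 2833 in ablated luminal, 1622 in ablated basal, 1905 in WT luminal and 1215.5 in WT basal cells; the part of this in the shares was not tested.

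**Figure D3:**
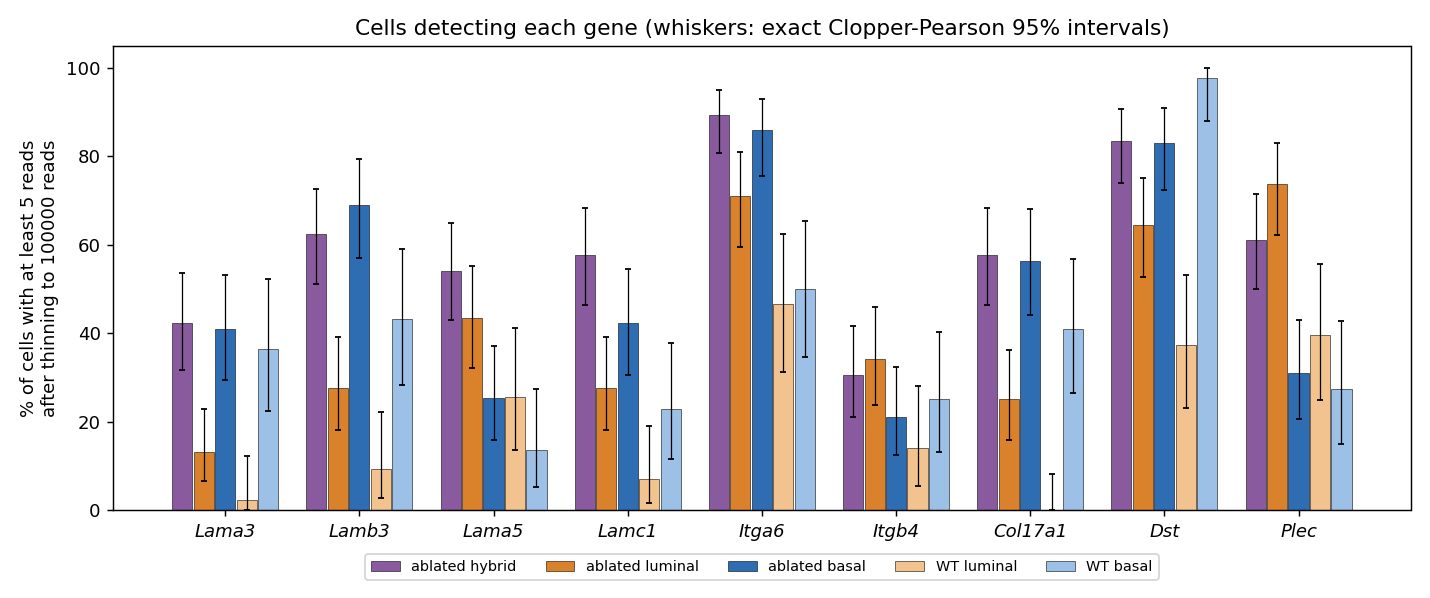
Percentage of cells (vertical axis) that detected each of the 9 genes at 5 or more reads after thinning to 100000 reads, in 5 groups (bars, in the order of the legend), with exact Clopper-Pearson 95% intervals as whiskers. Col17a1 has no bar in WT luminal cells (0 of 43), and Dst in WT basal cells has the highest bar (97.7%).

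Counted cell by cell, the median ablated hybrid cell detected 6 of the 9 members, against 4 in ablated luminal, 5 in ablated basal, 2 in WT luminal and 3.5 in WT basal cells. At least 5 members were found in 67.1% of hybrid (95% interval 56.02 to 76.9%), 31.6% of ablated luminal (21.4 to 43.3%), 52.1% of ablated basal (39.9 to 64.1%), 0% of WT luminal cells (upper bound 8.22%) and 27.3% of WT basal cells (14.96 to 42.8%). No WT luminal cell held more than 4. Detection at 20 reads gave medians of 3, 2, 3, 1 and 2 in the same order, so ablated hybrid and ablated basal cells were then level.

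**Figure D4:**
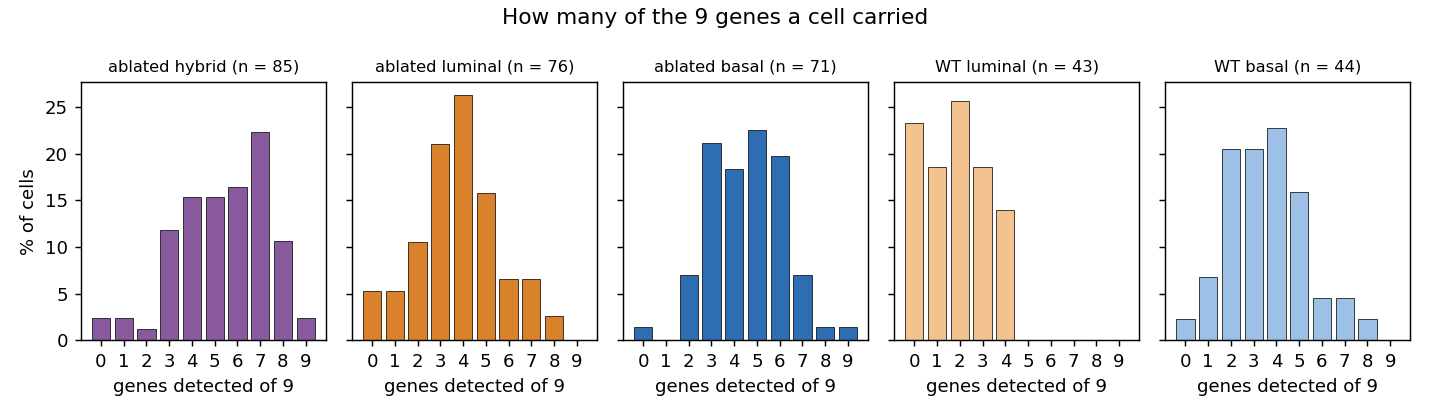
Number of the 9 genes detected in a cell (horizontal axis) against the percentage of cells of the group (vertical axis), 1 panel for each of the 5 groups, with detection at 5 reads after thinning to 100000 reads. WT luminal cells end at 4 genes, while the tallest hybrid bar is at 7 genes.

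Genes whose products form 1 complex were often not found in the same cell. Itga6 and Itgb4 were both detected in 29.4% of ablated hybrid, 27.6% of ablated luminal, 21.1% of ablated basal, 4.65% of WT luminal cells and 11.4% of WT basal cells, where the product of their single shares was 27.35%, 24.31%, 18.15%, 6.49% and 12.5%. Lama3 and Lamb3 were both detected in 29.4%, 9.21%, 29.6%, 0% and 13.6% of cells in the same order, with products of 26.4%, 3.64%, 28.2%, 0.216% and 15.7%. Observed shares and products were thus near each other in most groups.

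Correlations between members over the cells of a group, on log2(CPM + 10), were weak. Over the 36 pairs of members the median Pearson r was 0.22 in ablated hybrid (n = 85 cells), 0.08 in ablated luminal (n = 76), 0.09 in ablated basal (n = 71), 0.02 in WT luminal (n = 43) and 0.13 in WT basal cells (n = 44). The highest pair was Dst with Plec in hybrid cells (0.38) and Lama3 with Col17a1 in ablated luminal cells (0.49). The values of a cell share its library and depth, and the correlation of a member with depth had a median of 0.17 in hybrid and 0.11 in ablated luminal cells.

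Col17a1 tracked basal keratin more than other members did in ablated luminal cells: its Pearson r with Krt14 over the 76 cells was 0.62 (Spearman 0.51) and with luminal Krt8 −0.59 (Spearman −0.43). Lama3 followed with 0.42 for Krt14, Plec stood at 0.21 and Itga6 at −0.02. In hybrid cells the r with Krt14 was 0.40 for Itgb4, 0.24 for Col17a1 and 0.05 for Plec over 85 cells. Krt14 and Krt8 themselves correlated at −0.49 in ablated luminal and at −0.09 in hybrid cells.

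**Figure D5:**
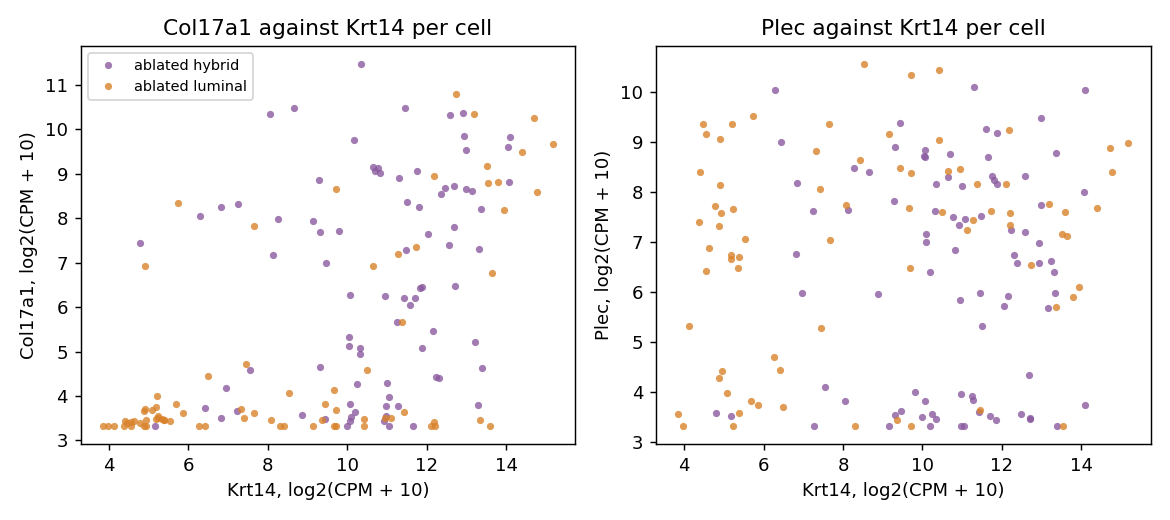
Level of Col17a1 (left) and Plec (right) against Krt14 in each ablated hybrid and ablated luminal cell, both axes as log2(CPM + 10). Ablated luminal cells low in Krt14 mostly lie at the floor for Col17a1 (r = 0.62, n = 76), while Plec is high in cells with little Krt14 as well (r = 0.21).

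The genes most like the mean of the 9 members over all 319 cells, among 4820 genes detected in at least 25% of the cells of a group, were Sparc (Pearson r 0.59), Cnn1 (0.54), Myl9 (0.53), Krt14 (0.53) and Tpm2 (0.52). This ranking contains the difference between the groups. Ranked by the mean of the 5 within-group correlations, the genes were Perp (0.35), S100a6 (0.33), Marcks (0.31), Cnn3 (0.31) and Slco2a1 (0.31). For single members the most like genes over all cells were Sparc for Lama3 (0.45), Lamb3 (0.51) and Itga6 (0.34), Lgals1 for Col17a1 (0.54), Scn7a for Dst (0.48), Fbln2 for Lamc1 (0.44), Krt7 for Plec (0.39), Nisch for Lama5 (0.33) and Cdkn2b for Itgb4 (0.30).

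The many-cell wells, whose cell numbers are not given in the labels, followed the single cells for some members and not for others. Lamb3 stood at 113 CPM in the ablated hybrid, 20.2 in the ablated luminal, 589 in the ablated basal, 9.95 in the WT luminal and 296 CPM in the WT basal well, the order of the single cells. Col17a1 stood at 193, 25.6, 255.5, 1.99 and 296 CPM in these wells, again in the order of the single cells. Itgb4, however, was 9.235 CPM in the ablated basal well (21 reads) and 388.5 CPM in the WT basal well, a log2 ratio of −4.37, where single cells gave −0.03. Lama5 stood at 36.8, 48.98, 176, 151 and 20.2 CPM, so its sign was opposite to that in single cells in all 6 comparisons. Counted at 2-fold, the WT luminal well had 1 higher (background 26.3% of genes) and 8 lower members (21.7%) against the WT basal well, and the ablated luminal well 1 higher (30.7%) and 7 lower (18.1%) against the ablated basal well. The ablated hybrid well had 1 higher (28.9%) and 4 lower members (17%) against the ablated basal well, and 4 higher (18.1%) and 1 lower (17.8%) against the ablated luminal well. The ablated luminal well had 4 higher (33.3%) and 1 lower (15.2%) against the WT luminal well, and the ablated basal well 2 higher (28.2%) and 1 lower (17.7%) against the WT basal well. With 1 well a group, the spread between such wells is not known.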

How the data were processed

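The deposited table held raw counts of reads per gene and well, made by the authors and not normalized, per the file headers and values. Per the submitters' processing notes, the tools were Seurat, HTSeq 0.6.0, STAR 2.5.2b and cutadapt 1.13 on GRCm38; their roles and the version of the gene annotation are not given in the sources used here. Symbols, coordinates and merged exon lengths come from GENCODE M21 (49326 of 49585 identifiers matched, 43749 with the same version; Col17a1 by identifier without version). The 92 spike-in rows held 11 reads and were left out.

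Wells with at least 100000 reads in genes, 1000 genes and at most 20% mitochondrial reads were kept; of the 55 left out, 47 had few reads and 8 a high mitochondrial share. Doublets were not called. Reads were summed per group into CPM, and 10 CPM were added before log2 ratios were formed. With 1 sample a group, a ratio counted as higher or lower at 2-fold, beside the share of all 11106 measured genes past that fold. Groups lie in blocks of neighbouring plate lines, so plate position and group cannot be told apart. Alternatives were the read, gene and mitochondrial limits, equal weight per cell, TMM (edgeR 4.0.16 in R 4.3.3) and median-of-ratios scaling, 1 CPM added, the top cell removed, other detection limits, the many-cell wells, and subtraction of negative-well reads, added after seeing the data. Steps ran in Python 3.11.15 with numpy 2.4.6, pandas 2.3.3, scipy 1.17.1 and matplotlib 3.10.9 and were tested on simulated counts. The members and gene lists were chosen with earlier results of these data known. Related genes were named where they had 50 CPM or more in the higher group and differed 2-fold, at most 4 a list and comparison, together with laminin chains; 1 related gene is not reported here. Promoter windows come from RefSeq on GRCm38.p6.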

Additional observations from a re-analysis of the deposited data

Results flagged for a closer look

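In the 5 negative control wells, 2 of 10 measures had a highest well that stood apart from the others: Lama5 had 2 reads and Itgb4 had 1 read in 1 well and 0 in the other 4. Where 4 wells hold 0 reads, any read in the other well sets it apart, so neither flag shows an unusual well. The negative control wells held 7930 to 13572 reads each, and the values are 1 or 2 reads.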

How the results depend on the processing

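Among single-cell alternatives, 124 recomputed counts of members stayed within 1.5 times the reported one and 8 did not. Of the log2 ratios, 565 stayed on their side of 2-fold, 24 newly passed it and 5 no longer did. Of those past 2-fold in either setting, 0 reversed sign. Sign changes under 2-fold were not counted. For example, Itgb4 in ablated against WT basal cells went from −0.03 to 0.40 without the top cells. The causes of the changes were not tested. Hybrid against ablated basal cells had 2 lower members with no mitochondrial limit, under TMM, under median-of-ratios and with 1 CPM added, Lamb3 joining Dst. Ablated against WT luminal cells had 7 higher members without the top cell of each gene, with Lamc1 (1.14), Dst (1.03) and Itga6 (1.01) added. The share of all genes past 2-fold was not recomputed in this or any other single-cell setting given here, so these counts have no background beside them. Equal weight per cell gave 1 higher member in ablated luminal against ablated basal cells (Plec, 1.30) and 1 lower in ablated against WT basal cells (Plec, −1.19), where median-of-ratios gave 2 (Lama5, −1.04, and Plec, −1.05). The median of all genes moved by more than 0.1 under TMM in ablated against WT luminal (0.21 to 0.01), ablated luminal against ablated basal (0.16 to 0.02) and hybrid against ablated basal cells (0.14 to 0.01). The many-cell wells gave 1 higher member in WT luminal against WT basal, 1 higher in ablated luminal against ablated basal, 1 higher and 4 lower in hybrid against ablated basal, 1 lower in hybrid against ablated luminal, 1 lower in ablated against WT luminal and 2 higher and 1 lower in ablated against WT basal. There Lama5 reversed to 2.42 in WT luminal against WT basal, −1.66 in ablated luminal against ablated basal, −1.99 in hybrid against ablated basal, −1.45 in ablated against WT luminal and 2.62 in ablated against WT basal, and in ablated against WT luminal Lama3 reversed to −0.10 and Itgb4 to −0.53. Of the recomputed shares of cells 121 stayed within their interval and 159 did not, all of them with other detection limits or without thinning. No paired analysis was possible because the replicate numbers name wells in accession order and no test between groups was made.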
